A study of Homo sapiens with 4 samples.

Results

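The genes described here are 10 transcriptional and lineage regulators that mark squamous identity or belong to the SOX and homeobox families: TP63, TP73, TRIM29, BNC1, PITX1, SOX2, SOX4, SOX9, SOX15 and LHX1. They were taken by gene name, and each matched 1 of the 58735 rows of the deposited expression table. RNA-seq libraries whose names carry 30 Gy (gray measures absorbed radiation) were set against libraries whose names carry 0 Gy, with 2 in each group. The labels give all 4 the same cells, a human squamous carcinoma line of the lung, and no further genotype. SK-MES-1, an established line of that type, and its radioresistant derivative SK-MES-1-RR appear in the series' design, but the labels tie neither name to a library and give no fractionation or harvest time. Nothing in them says that the replicates were separate cultures, so a p-value reflects only how much these libraries differ, which may be technical.

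In squamous epithelium, TP63 encodes p63, the p53-family factor that maintains basal cells and switches on basal keratins, integrins and laminins. SOX2, which lies on the same chromosome arm as TP63, acts beside it in many squamous lung carcinomas. SOX proteins bind DNA through an HMG box, and members of the family mark different identities: SOX2 the foregut and squamous lineages, SOX9 distal airway progenitors and cartilage, and SOX4 progenitor states in many tissues.

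The deposited values are FPKM, which scale fragments to gene length and to the library's total, so levels can be compared between genes. Multiplied by gene length, 100% of the values above 0 were whole multiples of a library-specific step, within 0.001 of a read, which gave the reads behind each value. The library totals were 15920861 and 15979341 reads at 30 Gy and 17261121 and 16773381 reads at 0 Gy. The correlation of log2(FPKM + 1) was 0.981 within 30 Gy and 0.984 within 0 Gy, against 0.956 to 0.958 between groups. Genes that reached an FPKM of 1 in 2 or more libraries were tested. Of these 13379, limma called 19.8% at an adjusted p under 0.05, 10.8% higher and 9.06% lower at 30 Gy, and the groups did not overlap for 65.2%.

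The squamous label was only partly borne by its markers. Of 13 squamous carcinoma markers, 5 had 0 reads in all 4 libraries: KRT5, KRT6A, KRT6B, DSG3 and SERPINB13. The desmosomal plaque gene PKP1 made up most of the list's summed level, with 16.2 and 14.8 FPKM at 30 Gy and 17.6 and 18.3 FPKM at 0 Gy. The list summed to 20.7 to 21.6 FPKM at 30 Gy and 23.0 to 23.5 FPKM at 0 Gy. PKP1, TP63 and TRIM29 were lower at 30 Gy, and SOX2, KRT15 and DSC3 higher. KRT15 had 102 and 154 reads at 30 Gy and 74 and 70 reads at 0 Gy. DSC3 had 70 and 73 reads at 30 Gy and 43 and 33 reads at 0 Gy. Of the list, 2 genes were tested and neither was called. The adenocarcinoma factor NKX2-1 was at 0 reads in each library. The glandular mucin MUC5AC was expressed, at 5.83 ± 0.283 FPKM at 30 Gy and 12.6 ± 0.385 FPKM at 0 Gy (SD, n = 2 each; limma adjusted p = 0.00337). FOXA2, of the same list of 12, had a mean of 5.665 FPKM at 30 Gy and 6.03 FPKM at 0 Gy. For FOXA1 the means were 2.59 FPKM at 30 Gy and 3.335 FPKM at 0 Gy. Neither passed (limma adjusted p = 0.497 for FOXA2 and 0.206 for FOXA1).

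Of the 6 members that could be tested, limma called 3 higher at 30 Gy and 0 lower, beside 10.8% and 9.06% of all tested genes. Those that rose were LHX1 (2.79-fold by the ratio of mean FPKM), SOX4 (1.69-fold) and SOX9 (1.25-fold). At an unadjusted p under 0.05 there were 5, with TP63 and PITX1 lower, beside 5049 of all 13379 tested genes. voom on the recovered reads called 3 higher and 1, TP63, lower, beside 2050 higher and 2177 lower of the same 13379. For 6 of the 6 the 30 Gy and 0 Gy values did not overlap, beside 65.2% of all tested genes. The members were chosen with results of these data known, so nothing is read from these shares. TP63, TP73 and PITX1 did not pass in limma, while SOX2, SOX15, TRIM29 and BNC1 lay under the filter and are described by their reads. In these bulk libraries, a change in the number of cells of one kind and a change in RNA per cell cannot be told apart.

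The SOX genes and the p53-family genes have similar coding sequence, so a stretch of high similarity is shown for each set. In GENCODE v29 transcripts (GRCh38), an in-frame window of 60 coding bases was chosen where SOX9 best matched the other SOX members. It holds 34 bases that are the same in all 4, marked by capitals. Other SOX pairs may match more closely elsewhere. Positions count from the start codon.
SOX9, coding bases 427 to 486: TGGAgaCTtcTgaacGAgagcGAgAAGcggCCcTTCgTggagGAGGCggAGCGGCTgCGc
SOX2, coding bases 235 to 294: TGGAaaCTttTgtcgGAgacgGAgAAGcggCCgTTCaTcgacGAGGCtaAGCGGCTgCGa
SOX4, coding bases 289 to 348: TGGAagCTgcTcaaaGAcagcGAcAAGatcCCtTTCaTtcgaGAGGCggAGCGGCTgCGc
SOX15, coding bases 259 to 318: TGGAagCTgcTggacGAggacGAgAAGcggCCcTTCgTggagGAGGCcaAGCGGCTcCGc

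The same search between TP63 and TP73 gave a closer match, with 53 of 60 bases the same in both, again in capitals.
TP63, coding bases 592 to 651: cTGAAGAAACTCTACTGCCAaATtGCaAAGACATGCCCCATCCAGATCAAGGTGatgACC
TP73, coding bases 442 to 501: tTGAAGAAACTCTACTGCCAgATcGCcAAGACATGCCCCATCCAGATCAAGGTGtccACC

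Over the whole coding sequences, the longest shared run was 27 bases for TP63 and TP73 and 17 to 27 bases among the 6 SOX pairs. No stretch of 50 bases in the annotated transcripts of SOX9, SOX15, TRIM29 or BNC1 occurred in another gene. The share was 2.03% for SOX2 (with SOX1, SOX21 and AC090192.1), 0.0263% for TP63, and 2.09% for SOX4, which shares with an antisense transcript. It was larger for PITX1 (6.88%, with an antisense transcript), LHX1 (6.56%, with LHX5 and an antisense transcript) and TP73 (7.998%, with TP73-AS1). The sources used here state neither the read length nor whether counting used strand.

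**Figure D1:**
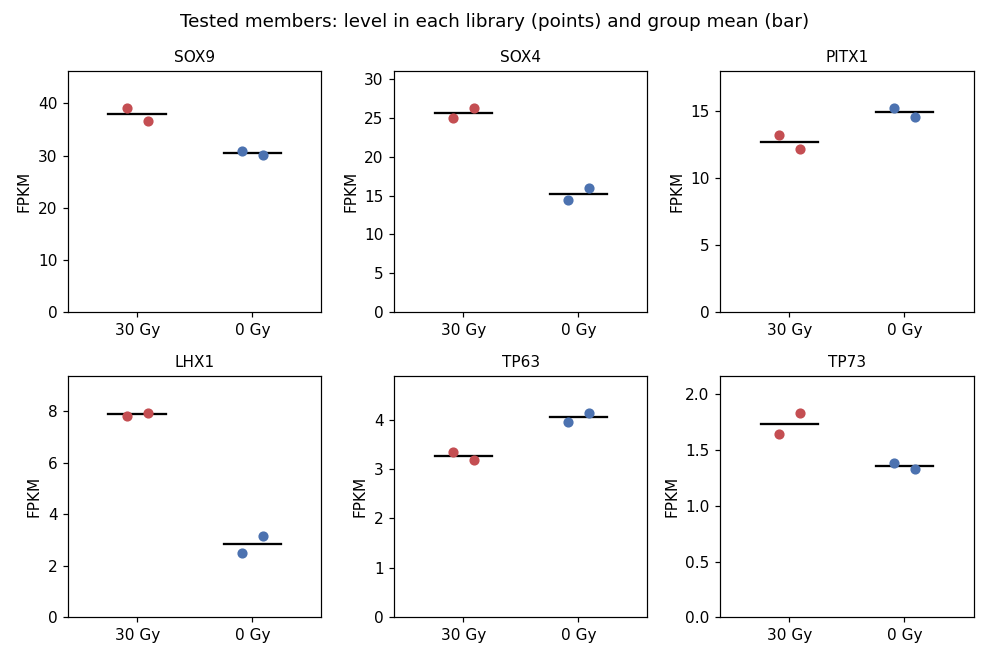
FPKM in each library (points) and group means (bars) for the 6 members that passed the filter, with 30 Gy left of 0 Gy and every axis starting at 0. LHX1 shows the widest gap, 7.83 and 7.94 FPKM at 30 Gy against 2.52 and 3.14 FPKM at 0 Gy.

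The SOX members stood at very different levels. SOX9 (ENSG00000125398, 17:72121020-72126420, hg38, plus strand), a factor of chondrocytes and of airway and other epithelial progenitors, was the most abundant of the 10 genes in both groups, at 39.2 and 36.7 FPKM at 30 Gy and 30.9 and 30.1 FPKM at 0 Gy. Both 30 Gy libraries were above both 0 Gy libraries. The values rest on 2462 and 2298 reads at 30 Gy and 2115 and 2011 reads at 0 Gy. SOX9 rose by 0.31 ± 0.06 on the log2(FPKM + 1) scale (SE; 95% interval 0.14 to 0.47; limma adjusted p = 0.0330). This call depended on the test. It was lost under the replicate block (0.0501), without the variance trend (0.0648) and with every gene above 0 tested (0.0890), and also without either 30 Gy library (0.117 and 0.0739 without the first and second) or either 0 Gy library (0.147 and 0.166). The change itself lay between 0.26 and 0.35 in all 13 alternatives.

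SOX4 (ENSG00000124766, 6:21592768-21598619, plus strand), a single-exon gene of the SOXC group that is induced by TGF-beta in epithelial cells, was next. It had 25.04 and 26.33 FPKM at 30 Gy (2339 and 2451 reads) and 14.4 and 15.9 FPKM at 0 Gy (1470 and 1586 reads). The groups were well apart, and the gap exceeded the difference between replicates several times over. SOX4 rose by 0.72 ± 0.08 (SE, log2; 95% interval 0.53 to 0.92; limma adjusted p = 0.00703), place 484 among the 13379 tested genes ordered from the highest rise down. It lost its call without the first 0 Gy library (log2 change 0.65, adjusted p = 0.0847) and without the second (0.79, adjusted p = 0.0813). In those fits, with a lone 0 Gy library, 0 of all genes passed in limma (3422 and 3460 at an unadjusted p under 0.05). limma's voom on the recovered reads gave 0.74 with an adjusted p of 3.68e-06. SOX11, of the same SOXC group, was low, at 0.251 and 0.296 FPKM at 30 Gy (35 and 41 reads) and 0.138 and 0.0405 FPKM at 0 Gy (21 and 6 reads). SOX12, the remaining SOXC gene, had 16.0 and 14.9 FPKM at 30 Gy and 18.6 and 18.0 FPKM at 0 Gy, a log2 change of -0.24 that did not pass (limma adjusted p = 0.0721).

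SOX2 (ENSG00000181449, 3:181711924-181714436, plus strand), the squamous and pluripotency factor, was barely detected. It had 22 and 19 reads at 30 Gy (0.548 and 0.475 FPKM) and 11 and 4 reads at 0 Gy (0.252 and 0.0936 FPKM). All 4 counts were above the 3-read floor, which equals 0.0686 to 0.0750 FPKM for this gene, and the 30 Gy libraries held the higher counts. Summed over libraries and relative to the library totals, the ratio of 30 Gy to 0 Gy was 2.92 (95% exact interval 1.58 to 5.67), an interval that covers counting error only. voom over all genes with at least 10 reads in all, which called 21.5% of 20688 genes, gave SOX2 a log2 change of 1.63 with an adjusted p of 0.102. The difference therefore did not pass. The overlapping noncoding gene SOX2-OT had 0 to 2 reads in each library.

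SOX15 (ENSG00000129194, 17:7588178-7590170, minus strand), a relative of SOX2 expressed in stratified epithelium, was close to the limit of detection. It had 3 and 6 reads at 30 Gy and 7 and 14 reads at 0 Gy, where the floor of 3 reads equals 0.112 to 0.122 FPKM. The count at 30 Gy was lower, with a summed ratio to 0 Gy of 0.457 whose counting interval of 0.184 to 1.04 included equality, and voom over the same genes gave an adjusted p of 0.462. On the opposite strand, SOX15 overlaps MPDU1, which rose (686 and 754 reads at 30 Gy, 564 and 515 reads at 0 Gy; limma adjusted p = 0.0194).

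Across the family of 19 SOX genes listed, 7 were tested, of which 3 rose, beside 10.8% of all tested genes, and the others did not pass in limma. Beside SOX4 and SOX9 the gene that rose was SOX7, an endothelial and endodermal SOXF gene, at 3.82 ± 0.542 FPKM at 30 Gy and 1.96 ± 0.199 FPKM at 0 Gy (SD, n = 2 each; limma adjusted p = 0.0227). The median log2 change of the 7 was 0.31, beside -0.00068 over all tested genes. SOX1, SOX3, SOX5, SOX14 and SOX17 had 0 reads in all libraries, which at these depths places them under the 3-read floor.

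**Figure D2:**
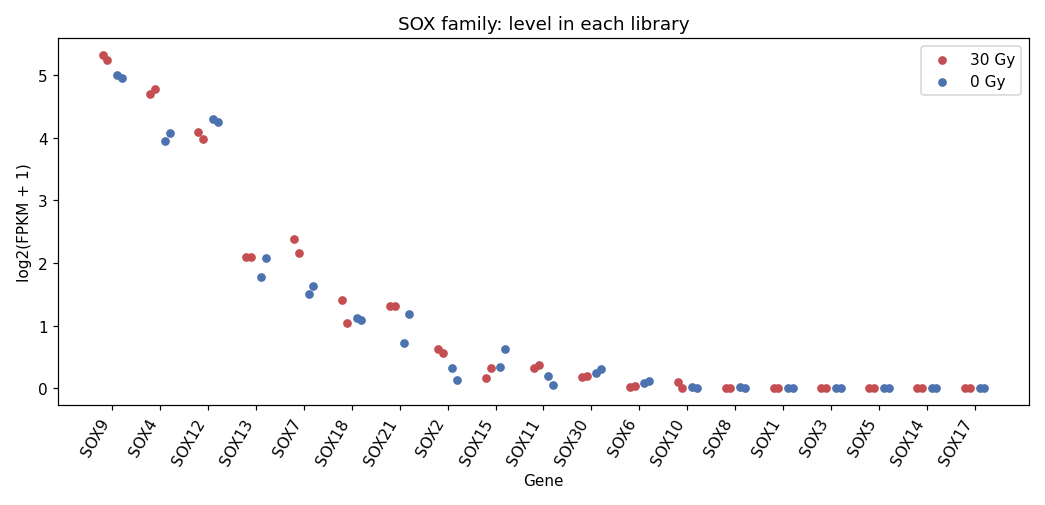
Level of 19 SOX genes as log2(FPKM + 1), 1 point per library, ordered by mean level, with 30 Gy points left of 0 Gy points. SOX9, SOX4 and SOX12 lead, and SOX4 and SOX7 are visibly higher at 30 Gy. The squamous factor SOX2 is low in every library, with its 30 Gy points above its 0 Gy points.

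LHX1 (ENSG00000273706, 17:36936785-36944612, plus strand), a LIM-homeodomain factor of head organizer, kidney and neural development, had the largest change among the tested members. It had 7.83 and 7.94 FPKM at 30 Gy (610 and 617 reads) and 2.52 and 3.14 FPKM at 0 Gy (214 and 261 reads). The 30 Gy libraries differed little from each other and both exceeded the 0 Gy libraries by a wide margin. LHX1 rose by 1.22 ± 0.10 (SE, log2; 95% interval 0.95 to 1.49; limma adjusted p = 0.00458) and took place 132 among the 13379 tested genes ordered from the highest rise down. It lost its call in the fits without the first 0 Gy library (log2 change 1.10, adjusted p = 0.0767) or the second (1.34, adjusted p = 0.0734), and kept it in the other 11 alternatives. voom gave 1.47 (adjusted p = 7.18e-07).

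LHX1 crossed TP63 in the order of levels. At 30 Gy the order was SOX9, SOX4, PITX1, LHX1, TP63, TP73, SOX2, SOX15, TRIM29 and BNC1, and the ranges of neighbours in this order did not overlap. At 0 Gy it was SOX9, SOX4, PITX1, TP63, LHX1, TP73, SOX15, SOX2, TRIM29 and BNC1, with overlapping ranges for SOX4 and PITX1 and for SOX2 and TRIM29. Among protein-coding genes, mean levels over the 4 libraries ran from percentile 94.2 for SOX9 and 89.1 for SOX4 to 59.0 for TP63, 38.2 for SOX2 and 21.3 for BNC1.

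PITX1 (ENSG00000069011, 5:135027735-135034813, minus strand), a paired-type homeodomain factor of hindlimb and oral epithelium, was well expressed and slightly lower at 30 Gy. It had 13.3 and 12.2 FPKM at 30 Gy (744 and 683 reads) and 15.3 and 14.6 FPKM at 0 Gy (934 and 870 reads). The groups did not overlap, but the gap between their nearest libraries was little larger than the difference between the 30 Gy libraries. Its log2 change was -0.21 ± 0.07 (SE; 95% interval -0.40 to -0.03), with an unadjusted p of 0.0328 and a limma adjusted p of 0.102. No alternative called it.

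Other PITX and LIM genes were mostly under the filter. Of 21 genes of these families and their LIM cofactors, 5 were tested and 4 had 0 reads in every library. LHX1 rose and the other tested genes did not pass, beside 10.8% of all tested genes called higher and 9.06% lower. The cofactor LDB1, which joins LIM factors into complexes, had 22.1 and 20.3 FPKM at 30 Gy and 24.5 and 22.1 FPKM at 0 Gy, and LMO4, a LIM-only protein that competes for LDB1, had 11.4 and 11.04 FPKM at 30 Gy and 11.4 and 10.1 FPKM at 0 Gy. LHX5, the closest relative of LHX1, had 4 and 6 reads at 30 Gy and 13 and 12 reads at 0 Gy, the lower counts being at 30 Gy.

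TP63 (ENSG00000073282, 3:189631416-189897279, plus strand) was expressed at a low level in every library. It had 3.34 and 3.19 FPKM at 30 Gy (397 and 378 reads) and 3.95 and 4.14 FPKM at 0 Gy (513 and 524 reads). Both 30 Gy libraries were below both 0 Gy libraries, with a mean 1.24-fold lower. The log2 change was -0.24 ± 0.08 (SE; 95% interval -0.46 to -0.03), with a limma adjusted p of 0.102, and it passed in 1 alternative, voom on the recovered reads (-0.33, adjusted p = 0.0426). The annotation gives TP63 14 transcripts with 8 distinct starts over 158385 bases, and gene-level values cannot separate its full-length from its amino-truncated isoforms, which are known to act in opposite ways on many targets.

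TP73 (ENSG00000078900, 1:3652520-3736201, plus strand), which encodes p73, the p53-family factor of multiciliated cells and DNA-damage responses, was lower still. It had 1.64 and 1.83 FPKM at 30 Gy (177 and 197 reads) and 1.38 and 1.33 FPKM at 0 Gy (163 and 153 reads). The 30 Gy libraries were both higher, with a log2 change of 0.21 ± 0.12 (SE; 95% interval -0.10 to 0.53; limma adjusted p = 0.270). TP73-AS1 overlaps one end of it on the opposite strand and had more reads than TP73 in each library. These were 334 and 283 reads at 30 Gy and 342 and 236 reads at 0 Gy. If counting ignored strand, reads of the pair may be mixed, but only in the overlap, which holds 7.998% of the 50-base stretches of TP73. WRAP73 also overlaps TP73 on the opposite strand, with 491 and 497 reads at 30 Gy and 604 and 597 reads at 0 Gy. It shares no stretch of 50 bases with TP73.

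**Figure D3:**
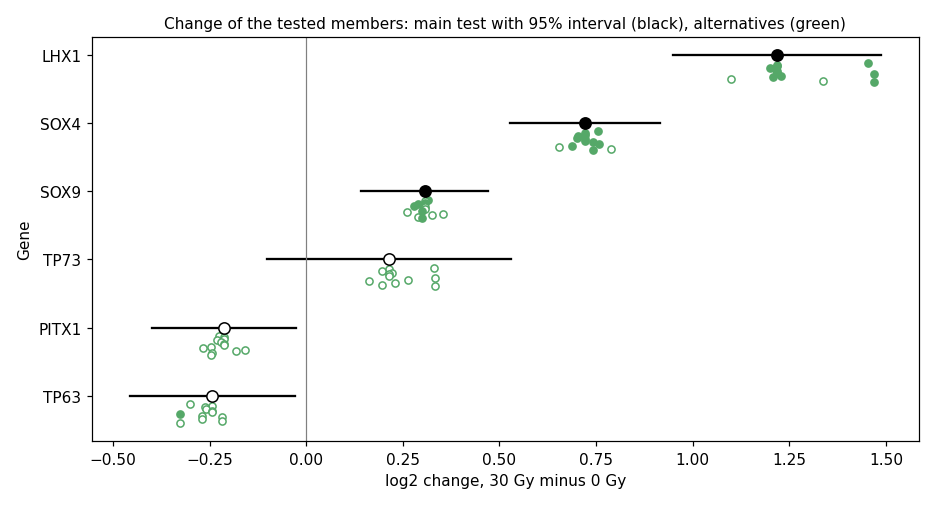
Log2 change at 30 Gy relative to 0 Gy for the 6 tested members: black points with 95% intervals from the main test, green points from the 13 alternatives (12 for TP63 and TP73), filled where the adjusted p is under 0.05. LHX1, SOX4 and SOX9 lie right of 0 under every setting and PITX1 and TP63 left of it.

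TRIM29 and BNC1, both genes of basal keratinocytes, were low. TRIM29 (ENSG00000137699, 11:120111275-120185529, minus strand), a tripartite-motif protein with roles in keratin organisation and DNA repair, had 8 and 9 reads at 30 Gy (0.0490 and 0.0554 FPKM) and 32 and 25 reads at 0 Gy (0.180 and 0.144 FPKM). All counts exceeded the floor, equal to 0.0169 to 0.0185 FPKM for this long gene, and the groups were clearly separated in counts. Relative to the library totals, the summed reads were 3.14-fold lower at 30 Gy (95% exact interval 1.80 to 5.76, counting error only). voom over genes with at least 10 reads in all gave -1.59 ± 0.60 (SE, log2) and an adjusted p of 0.0636, and limma with every gene above 0 gave 0.243, so the difference did not pass either.

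BNC1 (ENSG00000169594, 15:83255903-83284714, minus strand), basonuclin 1, a zinc-finger factor of proliferating basal keratinocytes, had 3 reads in the first 30 Gy library and 0 reads in the other 3 libraries. The floor of 3 reads equals 0.0360 to 0.0393 FPKM. No fold can be given, and no difference was detectable at this depth. Its relative BNC2, known in fibroblasts and skin, was expressed and rose, with 2.73 and 2.55 FPKM at 30 Gy and 1.02 and 1.33 FPKM at 0 Gy (limma adjusted p = 0.0220).

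**Figure D4:**
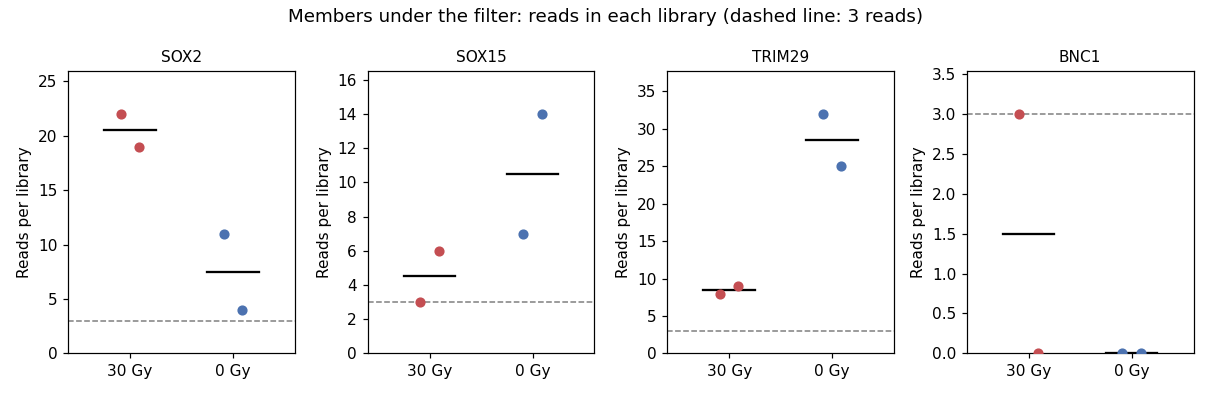
Reads in each library (points) and group means (bars) for the members under the filter, with the 3-read floor dashed. SOX2 is higher at 30 Gy (22 and 19 reads against 11 and 4), TRIM29 lower (8 and 9 against 32 and 25), and BNC1 has 3 reads in 1 library.

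Genes that p63 is known to control in keratinocytes went both ways. Of 22 such genes 13 were tested, 5 rose and 2 fell, beside 10.8% and 9.06% of all tested genes, and their median log2 change was 0.24. LAMA3, a chain of laminin-332, fell, with 7.14 and 7.48 FPKM at 30 Gy and 11.4 and 11.8 FPKM at 0 Gy (limma adjusted p = 0.00862). The Notch ligands also split: JAG1 rose to 12.4 ± 0.112 FPKM at 30 Gy, against 7.58 ± 0.431 FPKM at 0 Gy, and JAG2 fell to 4.45 ± 0.148 FPKM at 30 Gy, against 12.5 ± 0.480 FPKM at 0 Gy (SD, n = 2 each; limma adjusted p = 0.00801 and 0.00179). ITGB4, LAMB3 and PERP also rose, while the basal keratins KRT5 and KRT14 had at most 4 reads in a library.

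Other regulators of stratified epithelium were mostly under the filter. Of 24 listed transcription and splicing factors 6 were tested, with 1 higher and 1 lower, beside 10.8% and 9.06% of all tested genes. BNC2 rose and KLF4, a factor of epidermal differentiation, fell to 11.6 ± 0.320 FPKM at 30 Gy, against 15.4 ± 0.896 FPKM at 0 Gy (SD, n = 2 each; limma adjusted p = 0.0267). Among those under the filter, ELF3, an ETS factor of epithelium, had 54 and 80 reads at 30 Gy and 95 and 95 reads at 0 Gy. PAX9, a paired-box factor of oral and oesophageal epithelium, had 60 and 46 reads at 30 Gy and 100 and 75 reads at 0 Gy. GRHL2, OVOL1, OVOL2, FOXN1 and DLX5 had 0 reads in all libraries. Targets and partners of SOX9 in cartilage were mostly under the filter as well. Of 14 listed, 2 were tested and 1 rose, beside 10.8% of all tested genes called higher. This was MATN3, a matrilin of cartilage matrix, at 3.78 ± 0.408 FPKM at 30 Gy, against 1.63 ± 0.0931 FPKM at 0 Gy (limma adjusted p = 0.0113). COL2A1 and ACAN, the main SOX9-dependent cartilage genes, had 0 reads in each library.

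SOX2 and TP63 sit in a stretch of chromosome 3 that is often gained in squamous lung carcinoma. Of 22 genes listed there, TP63 included and most of them picked as expressed, 20 were tested. Of these 1 rose and 4 fell, beside 10.8% and 9.06% of all tested genes, and their median log2 change was -0.21, beside -0.00068 over all tested genes. SKIL, a repressor of SMAD signalling, rose to 17.1 ± 1.83 FPKM at 30 Gy, against 8.62 ± 0.571 FPKM at 0 Gy (SD, n = 2 each; limma adjusted p = 0.00750). The 4 that fell were TFRC, the transferrin receptor (24.3 ± 1.54 FPKM at 30 Gy, 47.1 ± 2.48 FPKM at 0 Gy; limma adjusted p = 0.00423), LAMP3, CLDN1 and BCL6. FXR1, one of 2 tested genes within 1 Mb of SOX2, had 21.1 and 21.7 FPKM at 30 Gy and 26.3 and 24.97 FPKM at 0 Gy and did not pass (limma adjusted p = 0.0519).

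Genes within 1 Mb of a member are given for comparison, and no test set a member against its neighbours. Over all tested genes 49.9% had a positive and 50.1% a negative log2 change, with 10.8% called higher and 9.06% lower. Within 1 Mb of LHX1, 15 genes were tested, with 1 called higher and 2 lower and a median log2 change of -0.06. The divergent noncoding gene LHX1-DT had a mean of 2.62 FPKM at 30 Gy and 1.35 FPKM at 0 Gy (limma adjusted p = 0.0653). Within 1 Mb of PITX1, 13 of 16 tested genes had a positive log2 change and 7 were called higher, TGFBI among them, while PITX1 itself had a negative one. All 10 tested genes within 1 Mb of TRIM29 had a positive change and 3 were called higher, with MCAM, a cell adhesion molecule, at a mean of 21.6 FPKM at 30 Gy and 10.1 FPKM at 0 Gy. Around TP73, 11 of 12 tested neighbours had a negative change and 5 were called lower. SOX15 had the most tested neighbours, 56, of which 40 had a positive change and 11 were called higher. Of 15 tested around BNC1, 11 had a negative change and 1 was called lower. TP63 had 4, with 2 positive and 2 negative changes and 1 called lower. The 2 tested neighbours of SOX2 had negative changes and were not called. SOX4 had 1 tested neighbour, CDKAL1 (5.46 FPKM at 30 Gy, 5.10 FPKM at 0 Gy, not called), and SOX9 had 4, with log2 changes of -0.36 to 0.56 and a lowest limma adjusted p of 0.0514.

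**Figure D5:**
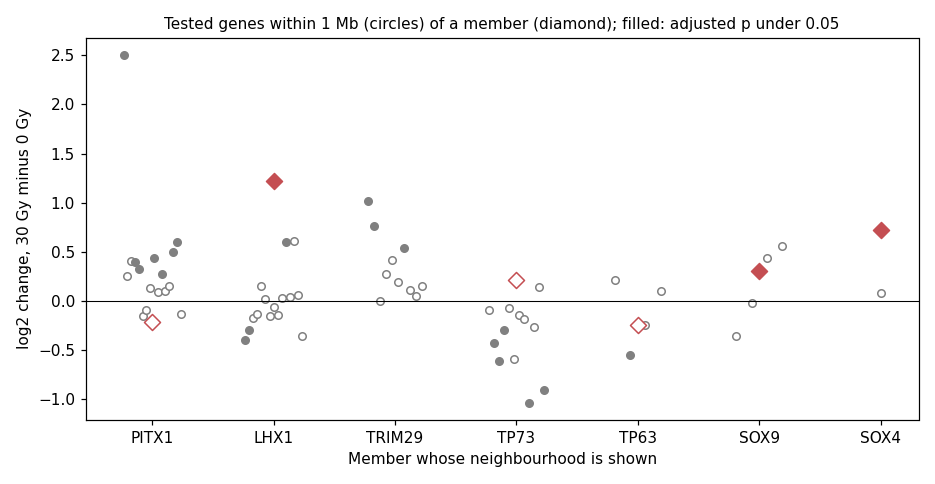
Log2 change at 30 Gy relative to 0 Gy of tested genes within 1 Mb of a member (circles) and of the member itself (diamonds, none for TRIM29, which was not tested), filled where the limma adjusted p is under 0.05. LHX1 and SOX4 lie above their neighbours, and PITX1 lies below 13 neighbours with positive changes. The neighbours of SOX2, SOX15 and BNC1 are not drawn.

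The genes whose pattern over the 4 libraries lay nearest to a member, by the distance between centred log2(FPKM + 1) values, were named to show the company the members keep. For SOX4 these were AGPS (distance 0.0187) and IVNS1ABP (0.0261), and for SOX9 SNRNP25 (0.00488) and CENPV (0.00878). LHX1 had more distant nearest genes, AC245041.2 (0.0747) and VIM (0.0897), VIM encoding vimentin and standing at 511 and 503 FPKM at 30 Gy and 215 and 238 FPKM at 0 Gy. TP63 was nearest to IL13RA1 and EML4, TP73 to E2F3 and PTPRA, and PITX1 to ELFN1 and LMNA. With 4 libraries in 2 groups, such likeness describes these libraries only.

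Markers of other cells were examined beside these results. Of 8 fibroblast markers, the summed level was 73.0 to 79.0 FPKM at 30 Gy and 63.0002 to 63.3284 FPKM at 0 Gy, nearly all of it COL1A1. COL1A1 did not pass (limma adjusted p = 0.0795). LUM, a matrix proteoglycan, had 43 and 63 reads at 30 Gy and 1 and 5 reads at 0 Gy and was not tested. PDGFRB, a growth factor receptor of mesenchymal cells, had 166 and 171 reads at 30 Gy and 81 and 87 reads at 0 Gy and did not pass (limma adjusted p = 0.0535). Summed reads of PDGFRA were 43 at 30 Gy and 18 at 0 Gy, those of THY1 were 61 at 30 Gy and 27 at 0 Gy, and those of COL3A1 were 10 at 30 Gy and 2 at 0 Gy. DCN had 0 reads in every library and COL1A2 at most 1 read. For the other 6 of the 8, FPKM in both 30 Gy libraries was above FPKM in both 0 Gy libraries. Over all tested genes, the groups did not overlap, in either direction, for 65.2%. Of these markers only COL1A1 and PDGFRB were tested, and PDGFRA had 13 reads in the first library of each group. The 5 endothelial markers summed to 0.159 to 0.195 FPKM at 30 Gy and 0.201 to 0.223 FPKM at 0 Gy, and the 5 leukocyte markers to 0.405 to 0.508 FPKM at 30 Gy and 0.630 to 0.688 FPKM at 0 Gy. CDH5, CD3E and LYZ were at 0 reads in all 4 libraries. The part of such cells in the changes of SOX4, SOX9 and LHX1 was not tested.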

How the data were processed

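RNA from 4 libraries, 2 labelled 30 Gy and 2 labelled 0 Gy in their library names, was compared. The authors deposited 1 table of FPKM values per gene, with gene positions and lengths; the submitters' processing notes name hg38, and the sources used here do not state the aligner, the counter or the annotation release. Whole reads were recovered as FPKM times gene length over a library-specific step. Replicates differed by more than sampling noise (mean chi-square per gene 5.26 within 30 Gy and 5.66 within 0 Gy).

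limma 3.58.1 in R 4.3.3 (lmFit, eBayes with trend, two-sided) was run on log2(FPKM + 1) for genes reaching an FPKM of 1 in 2 or more libraries, with Benjamini-Hochberg adjustment over all 13379 genes at 0.05. This scale understates the change of low genes. Residual degrees of freedom were 2 and prior degrees of freedom 2.98. The script was tested on simulated data. voom used the recovered reads with library totals. Floors of 3 reads and exact 95% intervals cover counting error only. Coding sequences, transcripts and shared stretches of 50 bases came from GENCODE v29, and neighbours lie within 1 Mb of a gene body.

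The members and gene lists were chosen with earlier results of these data known, so list counts and medians are descriptions. The naming rule took all members, up to 4 called genes of each list by absolute log2 change, family members, overlapping genes and the 2 nearest in pattern. Outside it, and after their values were seen, ITGB4, LAMB3, PERP, BCL6, FXR1, neighbours, other list genes that did not pass or were not tested, and marker genes were also named. Some genes that meet this rule are not reported here.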

Additional observations from a re-analysis of the deposited data

How the results depend on the processing

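The 13 alternatives left every tested member on its side of 0. Over the 76 values for the 6 tested members, 64 kept their call or lack of one, 11 lost a call and 1, TP63 with voom, gained it. Of all genes, 2654 were called; this was 604 with no filter, 4227 with voom on the recovered reads and 4456 with voom over genes with at least 10 reads in all, the alternative added after seeing the data. Leaving out 1 library gave 0 to 898 genes and 0 to 2 members; both counts were 0 only without a 0 Gy library, and they were 898 genes without the first 30 Gy library and 862 without the second. With the replicate block 1926 genes and 2 members were called, SOX9 having been lost. Same-numbered libraries did not deviate together (correlation -0.0263), so the numbers are not taken as pairs. Median centring shifted the median of all genes by under 0.1 on the log2 scale. The cause of these differences was not tested. The number of genes tested also differed, at 30687 without a filter and 20688 in the added voom fit. Depth limits SOX2, SOX15, TRIM29 and BNC1, which rest on 0 to 32 reads per library.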
